A study of Mus musculus with 20 samples.

Results

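The genes described here belong to the transcription factor families whose silencing by Polycomb has been studied most: the Hox clusters, the Pax, Lhx, Tbx, Sox, Irx, Dlx, Msx, Nkx and Gata families and the family of Six4 and Six5. They were chosen by symbol, as every row of the expression tables whose name begins with one of these family names followed by a number, except Pax4, Pax6, Nkx2-2, Sox9, Gata4 and Gata6. The rule used no expression value and found 75 genes, of which 67 have the symbol of a protein gene and 8 that of an antisense or opposite-strand transcript. At the acute time 72 of them were listed, among 17294 gene rows. At the prolonged time 50 were listed, among 16195 rows, and 47 were listed at each time.

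RNA-seq of poly(A) RNA was made from jejunal epithelial cells of female mice, in 20 libraries. The acute groups, collected 7 days after gene ablation was induced, had 5 libraries of genotype Control/WT (Control) and 7 with knockout of both Kdm6a and Kdm6b (DKO). The prolonged groups, collected 5 months after induction, had 3 Control and 5 DKO libraries. The series design names crypt cells. The ages of the mice, the recombinase, its driver and the inducing agent, and whether Control mice carried any of these, are not given in the sources used here. The labels call the libraries biological replicates, and p-values below measure the spread between them.

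Polycomb repressive complex 2 (PRC2) places methyl groups on lysine 27 of histone H3, and this mark, H3K27me3, with Polycomb repressive complex 1 (PRC1), keeps many developmental genes silent outside the tissue or stage that uses them. Kdm6a (UTX) and Kdm6b (JMJD3) encode the demethylases that remove the mark. Hox genes, which give cells their position along the body axis, and Pax, Lhx, Tbx, Sox and related factors are textbook targets of this silencing. The comparison at each time therefore addresses whether members of these families lost expression, or gained it, when both demethylases were ablated.

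For Kdm6a and for Kdm6b the Control and DKO libraries of each time did not overlap, with DKO below. In acute libraries Kdm6a averaged 66.1 ± 6.62 CPM in Control (CPM, the usual count unit scaled to the library's total of reads in genes; SD, n = 5) and 42.6 ± 2.73 CPM in DKO (n = 7), and in prolonged ones 76.2 ± 5.95 (n = 3) and 49.1 ± 3.93 CPM (n = 5). Acute Kdm6b averaged 101 ± 6.71 in Control and 70.4 ± 8.87 CPM in DKO, and prolonged Kdm6b 102 ± 3.85 and 76.3 ± 4.98 CPM. Libraries held 9914738 to 26586045 reads in genes, so that 1 read was worth 0.0376 to 0.101 CPM. Markers of intestinal epithelium summed to 15037 to 22125 CPM per library, and all 15 were detected in every library. On the first principal component of the acute data, DKO libraries 3 and 4 had scores of 34.0 and 45.9, and the other 10 ranged from -28.0 to 12.1. The acute labels hold mouse numbers. Those of DKO 3 and 4 are consecutive and lie above all others, with no Control number near them. What the mouse numbers stand for is not given. Among the fold changes recomputed without DKO 3 and 4, those that moved by over 1.5 times are given both ways.

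Most of these genes had little or no RNA in the jejunal epithelium. A gene was tested where at least 0.5 CPM was reached in as many libraries as the smaller group had. This left 22 of 72 acute and 21 of 50 prolonged members, which is 30.6% and 42.0% of them, against 78.6% and 82.2% of all gene rows. All rows of the Dlx, Hoxc, Hoxd, Irx and Msx families lay below this level at each time they were listed. Per kilobase of exon, the highest mean level in acute Control libraries was that of Tbx3, at 30.6 CPM per kb, followed by Gata5 at 26.1, Sox13 at 16.8, Sox4 at 12.1, Sox6 at 2.74 and Pax8 at 1.49 CPM per kb. The highest Hox gene per kilobase, Hoxa5, had 0.388 CPM per kb in the same libraries.

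By limma with Benjamini-Hochberg adjustment over all genes tested (threshold 0.05), Pax8 and Sox13 fell at both times and no member rose. The count of 2 among 22 tested members at the acute time stands beside 15% of all 13601 tested genes called in either direction, 12.1% lower and 2.9% higher. The prolonged count was 2 of 21 members, beside 14.7% of 13316 genes in either direction, 8.94% lower and 5.74% higher. At an unadjusted p under 0.05 there were 5 members at each time, of which 2 were higher in DKO libraries, beside 28.9% of all tested genes at the acute and 28.2% at the later time. The authors' deposited table, made with DESeq2, called 6 members at the acute time, 3 higher (Tbx3, Tbx3os2 and Nkx6-3) and 3 lower (Pax8, Sox13 and Six4), where it called 15% of the 15617 genes with an adjusted p. At the prolonged time the authors' deposited table called 2 members, both lower, and 15.6% of 13365 genes. The acute median log2 fold change (DKO minus Control, on log2(CPM + 1)) was 0.11 for the tested members and -0.07 for all tested genes, and the prolonged medians were 0.01 and 0.00.

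**Figure D1:**
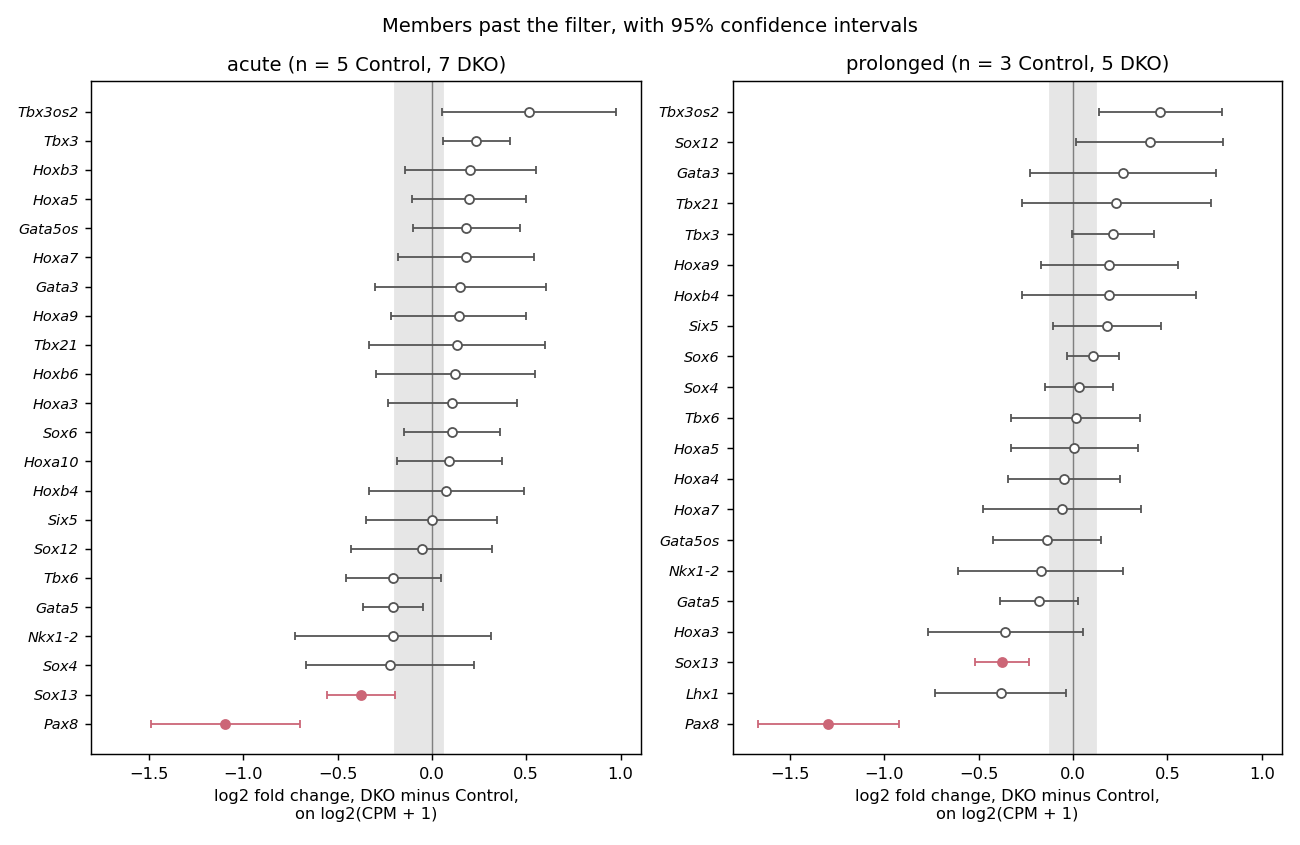
Log2 fold change (DKO minus Control, on log2(CPM + 1)) of each member tested at the acute (left) and prolonged (right) time. Bars are 95% confidence intervals, filled points are genes with an adjusted p under 0.05, and the grey band spans the middle quartiles of all tested genes. Pax8 lies at -1.09 and -1.30 and Sox13 at -0.38 and -0.38, and the other members' points lie between -0.38 and 0.51.

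The promoters of 4 members are printed to show the sequence context of the genes described next: Pax8 and Sox13, which fell at both times, Six4, which had fewer reads in DKO libraries, and Hoxa3, the Hox gene with the highest CPM, which did not pass the test. Each run holds 300 bases of the gene's own strand, 5′ to 3′, from 250 before to 50 after the start that RefSeq gives on GRCm38.p6, with each CG in capitals, since CpG-rich promoters are the usual sites of Polycomb binding. The Pax8 window is chr2:24475550-24475849, that of Sox13 chr1:133424163-133424462, that of Six4 chr12:73113196-73113495 and that of Hoxa3 chr6:52213018-52213317, all on the minus strand.
Pax8: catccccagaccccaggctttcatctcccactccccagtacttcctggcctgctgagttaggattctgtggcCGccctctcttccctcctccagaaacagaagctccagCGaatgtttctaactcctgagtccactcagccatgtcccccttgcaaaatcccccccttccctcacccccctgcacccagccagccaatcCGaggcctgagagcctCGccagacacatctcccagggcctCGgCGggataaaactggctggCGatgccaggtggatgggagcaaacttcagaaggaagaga
Sox13: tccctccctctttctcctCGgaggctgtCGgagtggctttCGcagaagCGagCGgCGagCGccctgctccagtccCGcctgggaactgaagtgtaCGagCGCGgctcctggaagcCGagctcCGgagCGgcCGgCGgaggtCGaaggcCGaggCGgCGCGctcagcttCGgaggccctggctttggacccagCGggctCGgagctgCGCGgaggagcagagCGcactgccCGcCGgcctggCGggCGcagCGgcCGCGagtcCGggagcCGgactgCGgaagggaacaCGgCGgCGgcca
Six4: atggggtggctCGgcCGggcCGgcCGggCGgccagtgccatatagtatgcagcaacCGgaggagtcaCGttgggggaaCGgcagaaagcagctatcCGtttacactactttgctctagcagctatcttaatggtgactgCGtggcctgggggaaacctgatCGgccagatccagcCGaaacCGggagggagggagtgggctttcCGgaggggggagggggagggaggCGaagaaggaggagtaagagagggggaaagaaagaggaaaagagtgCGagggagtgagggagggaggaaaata
Hoxa3: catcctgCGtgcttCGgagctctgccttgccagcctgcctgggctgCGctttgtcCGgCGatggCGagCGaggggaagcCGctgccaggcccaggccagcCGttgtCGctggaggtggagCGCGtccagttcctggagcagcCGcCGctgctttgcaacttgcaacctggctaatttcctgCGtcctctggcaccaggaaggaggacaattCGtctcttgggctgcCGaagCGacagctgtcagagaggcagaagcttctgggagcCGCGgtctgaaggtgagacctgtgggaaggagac
CG occurred 7 times in the Pax8, 40 times in the Sox13, 16 times in the Six4 and 20 times in the Hoxa3 window. Of the 27025 genes in the RefSeq promoter table, 94.6% held at least 1 CG and the median was 8, and 54.2%, 4.41%, 35.5% and 28.8% held at least as many as these windows, in the same order. Where a gene has several starts, as Six4 has 2, the window with the most CG was taken. The 2 genes that fell thus had the lowest and the highest count of the 4. Promoter windows were found for 55 of the 75 members, too few to describe the families by this measure, and no chromatin data bear on these windows here.

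Pax8, a paired-box factor needed for thyroid and kidney development, showed the largest change of any tested member at both times. In acute Control libraries it had 7.40, 10.5, 8.29, 8.14 and 10.8 CPM, and in the 7 acute DKO libraries a lowest value of 2.41, a median of 2.94 and a highest of 5.91 CPM. All 7 DKO libraries lay below all Control libraries. The means were 9.03 ± 1.53 CPM (SD, n = 5) and 3.81 ± 1.36 CPM (n = 7), a log2 fold change of -1.09 ± 0.18 (SE, limma adjusted p = 0.00174).

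At the prolonged time Pax8 was again low in every DKO library. Control libraries had 9.58, 15.1 and 12.5 CPM and DKO libraries 5.89, 3.96, 3.44, 3.83 and 5.11 CPM, with no overlap. The DKO mean of 4.45 ± 1.02 CPM (n = 5) was 35.8% of the Control mean of 12.4 ± 2.78 CPM (n = 3), and the log2 fold change was -1.30 ± 0.17 (limma adjusted p = 0.000482). At the acute time the DKO mean was 42.2% of that in Control libraries. Pax8 was called in every alternative analysis that was run at either time. The Pax8 exons share 367 bases with Gm13415 on the opposite strand, and the library kit named in the labels does not mark strand, so reads of the 2 genes there cannot be told apart. The crypt stem cell marker Olfm4 was lower in DKO libraries at both times (1193 ± 185 and 605 ± 195 CPM, then 1311 ± 91.5 and 761 ± 80.9 CPM). Lgr5, also a crypt stem cell marker, did not pass the test at either time (23.4 ± 2.97 and 14.1 ± 5.78 CPM, adjusted p = 0.0546, then 21.8 ± 0.665 and 20.7 ± 3.35 CPM, adjusted p = 0.658, by limma). Of 12 enteroendocrine markers 3 were lower at the acute time (Gcg, Ghrl and Sct), beside 12.1% of all tested genes. At the prolonged time 5 were lower (Gcg, Sct, Cck, Gip and Sst) and 1 higher (Chga), beside 8.94% and 5.74% of all tested genes. The part of crypt stem and enteroendocrine cells in the Pax8 and Sox13 results was not tested. In bulk tissue, fewer cells that express a gene and less RNA per cell cannot be told apart either.

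Sox13, a SoxD group factor known from lymphocyte and cartilage development, fell by a smaller amount. Acute Control libraries had 62.2, 80.3, 74.96, 70.6 and 73.8 CPM, and acute DKO libraries ranged from 46.9 to 65.5 CPM with a median of 53.7. Of the 7 DKO libraries, 5 lay below every Control library, and the other 2 lay above the lowest Control value alone. The means were 72.4 ± 6.66 (n = 5) and 55.6 ± 6.36 CPM (n = 7), a log2 fold change of -0.38 ± 0.08 (limma adjusted p = 0.00935). Scaling CPM for library composition ended this acute call in limma. The log2 fold change was -0.29 with an adjusted p of 0.0526 by TMM factors, and -0.28 with 0.0595 by relative log expression factors. On the reads, edgeR and DESeq2 also scale for composition. The call held by edgeR with the filter and by DESeq2 (-0.28, adjusted p = 0.0390 in the authors' deposited table). It was lost by edgeR with no filter.

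Sox13 did not overlap between groups at the prolonged time. Its values were 61.8, 67.4 and 59.6 CPM in Control libraries and 51.0, 50.3, 44.8, 45.8 and 49.5 CPM in DKO libraries. The means were 62.9 ± 4.02 (n = 3) and 48.3 ± 2.79 CPM (n = 5), a log2 fold change of -0.38 ± 0.07 (limma adjusted p = 0.00294), and both scalings kept this call. Among tested members the groups did not overlap for 1 of 22 at the acute time (Pax8, DKO below), beside 7.79% of all tested genes in either direction and 6.55% with DKO below. They did not overlap for 4 of 21 at the prolonged time, beside 20.5% of all genes, 11.7% with DKO below and 8.82% with DKO above. These 4 were Pax8, Sox13 and Lhx1, with DKO below, and Tbx3os2, with DKO above.

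**Figure D2:**
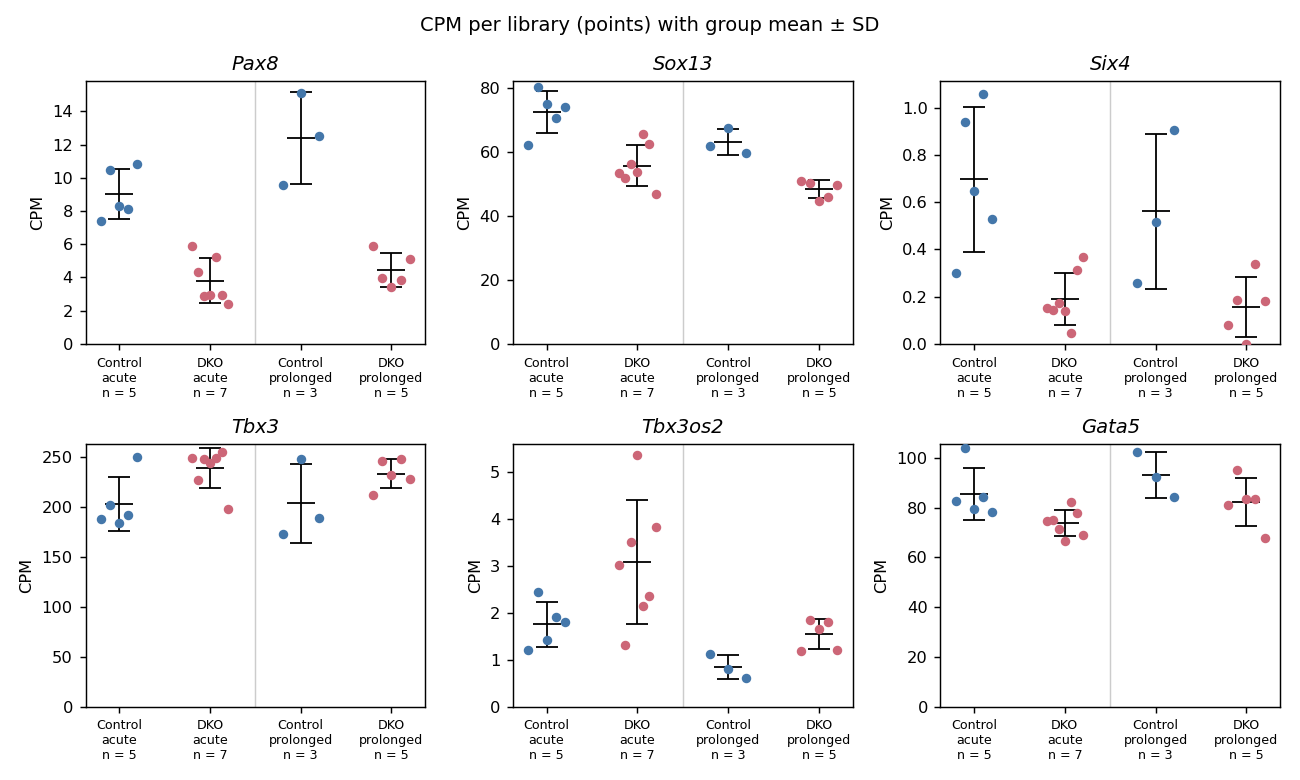
CPM of 6 members in each library (points), with the group mean and SD (bars), for the 4 groups from acute Control to prolonged DKO. Pax8 in all 12 DKO libraries lies below every Control library of its time, Six4 is under 0.4 CPM in every DKO library, and the groups overlap for Tbx3 and Gata5.

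Six4, a homeobox factor of muscle and sense organ development, lay below the level for testing at both times. Acute Control libraries had 0.301, 0.942, 0.648, 1.06 and 0.531 CPM, which is 77 reads in all. The 7 acute DKO libraries had 30 reads in all and between 0.0457 and 0.367 CPM, with a median of 0.150, and 5 of them lay below every Control library. The means were 0.696 ± 0.308 (n = 5) and 0.190 ± 0.111 CPM (n = 7). On the reads, with no filter, edgeR's quasi-likelihood test gave a log2 fold change of -1.76 and an adjusted p of 0.0180, and the authors' deposited table gave -1.79 and 0.00419.

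Prolonged libraries held few Six4 reads, 24 in 3 Control and 14 in 5 DKO libraries. The values were 0.259, 0.516 and 0.908 CPM in Control libraries and 0.0796, 0.185, 0, 0.340 and 0.180 CPM in DKO libraries. One DKO library thus lay above the lowest Control library. The edgeR log2 fold change was -1.51 with an adjusted p of 0.169 (unadjusted p = 0.0395), which did not pass the threshold.

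Tbx3, a T-box repressor with roles in limb and mammary gland development, was the most abundant member. Its values were 187, 202, 184, 192 and 250.0 CPM in acute Control libraries, and 198 to 255 CPM with a median of 248 in acute DKO libraries. Control library 5 lay among the DKO libraries and DKO library 7 among the Control libraries. The means were 203 ± 27.2 (n = 5) and 238 ± 20.0 CPM (n = 7), a log2 fold change of 0.24 ± 0.08 (limma adjusted p = 0.0733), which did not pass the threshold. Leaving out Control 5 gave 0.31 (adjusted p = 0.0112) and leaving out DKO 7 gave 0.28 (adjusted p = 0.0248), and the authors' deposited table called the gene higher, at 0.33 (adjusted p = 0.0404).

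Prolonged libraries had Tbx3 at 173, 248 and 189 CPM in Control and 212, 246, 232, 248 and 228 CPM in DKO. Control library 2 lay with the highest DKO libraries. The means were 203 ± 39.7 (n = 3) and 233 ± 14.8 CPM (n = 5), a log2 fold change of 0.21 ± 0.10 (limma adjusted p = 0.187). Without Control 2 it was 0.36 (adjusted p = 0.00784), and without Control 1 it was 0.10 (adjusted p = 0.522).

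Tbx3os2 is a transcript annotated on the strand opposite to Tbx3. It had 1.20, 2.45, 1.43, 1.91 and 1.80 CPM in acute Control libraries and 1.31 to 5.36 CPM, with a median of 3.01, in acute DKO libraries. The 4 highest DKO libraries lay above all Control libraries, and the other 3 lay among them. The log2 fold change was 0.51 ± 0.22 (limma adjusted p = 0.129). It was called in 2 of 22 alternatives: without DKO 2 it was 0.64 (adjusted p = 0.0385), and by DESeq2 0.92. Without DKO 4 it was 0.40 (adjusted p = 0.190), and without DKO 3 and 4 it was 0.33 (adjusted p = 0.305). The authors' deposited table, also made with DESeq2, gave the same 0.92 (adjusted p = 0.0388) and is not separate evidence.

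Tbx3os2 separated the prolonged groups, with 1.12, 0.803 and 0.605 CPM in Control and 1.19, 1.85, 1.65, 1.80 and 1.20 CPM in DKO libraries. The means were 0.843 ± 0.261 (n = 3) and 1.54 ± 0.320 CPM (n = 5), a log2 fold change of 0.46 ± 0.15 (limma adjusted p = 0.0595). Of 17 alternatives, 3 called the gene, with adjusted p of 0.0491 with no filter, 0.0499 with relative log expression scaling and 0.0462 without Control 1. The other 14 did not, and without Control 3 the change was 0.37 (adjusted p = 0.231).

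Gata5, an endoderm factor of the same family as the gut regulators Gata4 and Gata6, was the second most abundant member per kilobase. Acute Control libraries had 82.6, 104, 79.6, 84.2 and 78.0 CPM, and DKO libraries 66.7 to 82.1 CPM with a median of 74.5. Of the 7 DKO libraries, 6 lay below every Control library. The means were 85.6 ± 10.4 (n = 5) and 73.8 ± 5.30 CPM (n = 7), a log2 fold change of -0.21 ± 0.07 that did not pass the threshold (limma adjusted p = 0.0782).

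Prolonged Gata5 values were 102, 92.3 and 84.2 CPM in Control and 81.2, 95.1, 83.5, 83.3 and 67.9 CPM in DKO libraries. DKO library 2 lay inside the Control range and the other 4 below it. The log2 fold change was -0.18 ± 0.09 (limma adjusted p = 0.244). The antisense transcript Gata5os, which shares 258 exon bases with Gata5, had a log2 fold change of 0.18 ± 0.13 (limma adjusted p = 0.396) at the acute and -0.14 ± 0.13 (adjusted p = 0.540) at the prolonged time.

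Sox4, a SoxC group factor of progenitor cells, varied more among acute DKO libraries than between groups. Acute Control libraries had 54.4, 70.1, 58.5, 58.9 and 49.1 CPM, and DKO libraries 29.4 to 71.6 CPM with a median of 59.8. DKO libraries 1, 3 and 4, at 41.0, 33.8 and 29.4 CPM, lay below every Control library, and the other 4 lay within the Control range or above it. The log2 fold change was -0.22 ± 0.21 (limma adjusted p = 0.526), and without DKO 3 and 4 it was 0.028 (adjusted p = 0.926), which turns its direction.

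Prolonged Sox4 levels were 61.7, 49.4 and 57.8 CPM in Control and 52.3 to 61.9 CPM in the 5 DKO libraries, with a log2 fold change of 0.03 ± 0.08 (limma adjusted p = 0.850). Without Control 2 the sign turned, to -0.059 (adjusted p = 0.682). Sox4 exons share 2616 bases with Gm26735 on the opposite strand. Sox6, a SoxD factor like Sox13, had 40.7 ± 3.42 and 44.5 ± 9.25 CPM at the acute time (log2 fold change 0.11 ± 0.12, limma adjusted p = 0.611). Prolonged Sox6 levels were 58.1 ± 4.46 and 62.5 ± 2.85 CPM (0.10 ± 0.06, adjusted p = 0.315). The 95% intervals of the Sox6 change were -0.15 to 0.36 and -0.03 to 0.24.

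Sox12, the SoxC relative of Sox4, had 3.45, 3.27 and 2.62 CPM in prolonged Control and 6.37, 4.20, 4.13, 2.96 and 5.05 CPM in prolonged DKO libraries. The 4 highest DKO libraries lay above all Control libraries. The log2 fold change was 0.41 ± 0.18 and did not pass the threshold (limma adjusted p = 0.161), and at the acute time it was -0.05 ± 0.17 (adjusted p = 0.875). Lhx1, a LIM-homeobox factor of kidney and head development, was tested at the prolonged time, with 0.604, 0.573 and 1.21 CPM in Control and 0.557, 0.495, 0.344, 0.194 and 0.241 CPM in DKO libraries. These groups did not overlap, and the log2 fold change was -0.38 ± 0.16 (limma adjusted p = 0.135). Control 3 was the highest library, and without it the change was -0.23 (adjusted p = 0.471). In acute libraries Lhx1 lay below the level for testing, with 40 reads in Control and 46 in DKO libraries.

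Tbx21 (T-bet) and Gata3 are known for directing lymphocyte subsets, and neither passed the test. Tbx21 had 2.98 ± 0.962 and 3.42 ± 1.18 CPM at the acute time (log2 fold change 0.13 ± 0.22, limma adjusted p = 0.741) and 2.31 ± 0.344 and 3.03 ± 1.20 CPM at the prolonged time (0.23 ± 0.23, adjusted p = 0.57). Gata3 had 1.27 ± 0.442 and 1.58 ± 0.753 CPM (0.15 ± 0.21, adjusted p = 0.694), then 0.814 ± 0.430 and 1.20 ± 0.601 CPM (0.26 ± 0.22, adjusted p = 0.490). Summed immune cell markers ranged from 463 to 856 CPM in acute Control, 424 to 1276 in acute DKO, 309 to 640 in prolonged Control and 405 to 924 CPM in prolonged DKO libraries. The library with the highest immune sum, acute DKO 3, also had the highest acute Gata3 value, 2.66 CPM, and acute DKO 4, with the lowest acute immune sum, had the lowest, 0.373 CPM. Tbx21 was highest in acute DKO 6, at 5.07 CPM, with 3.30 CPM in DKO 3, and also lowest in DKO 4, at 1.40 CPM. The part of these cells in the levels was not tested. Nkx1-2, a homeobox factor of the embryonic tail bud, had 0.764 ± 0.379 and 0.600 ± 0.717 CPM at the acute time (-0.21 ± 0.24, adjusted p = 0.627), and 1 DKO library, number 5, held 2.15 CPM. The Nkx1-2 fold change was -0.39 without DKO 5, -0.11 without Control 2 and -0.022 without DKO 3 and 4.

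The Hox genes were expressed at low levels in all groups. The 22 Hox protein genes listed at the acute time had 2286 reads in all 12 libraries together, and the 14 listed at the prolonged time had 821 reads in 8 libraries. The highest group mean of any Hox gene was 1.47 CPM, for Hoxa3 in acute DKO libraries. At the acute time 8 passed the level for testing, 5 of the Hoxa and 3 of the Hoxb cluster, and at the prolonged time 6 did, of which 5 were Hoxa genes.

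None of the tested Hox genes passed the test by limma, also at an unadjusted p under 0.05, and none was called by edgeR or DESeq2. Of all tested genes, limma called 15% (acute) and 14.7% (prolonged), and 28.9% and 28.2% had an unadjusted p under 0.05. The groups were separate for no tested Hox gene, beside 7.79% of all acute and 20.5% of all prolonged tested genes. Whether the lack of calls among 8 acute and 6 prolonged Hox genes differs from these shares was not tested. The acute log2 fold changes of the tested Hox genes were all above 0, from 0.08 (Hoxb4) to 0.20 (Hoxb3). Their median was 0.13, and the lowest limma adjusted p was 0.389. On the reads, where no pseudocount of 1 CPM compresses low genes, they ran from 0.22 to 0.60 by edgeR and from 0.22 to 0.61 by DESeq2. Under both scalings all 8 also lay above 0, and without acute Control 1, 7 did. The bounds of their 95% intervals reached from -0.33 to 0.55. Of all tested genes, 35.4% lay above 0 on CPM, 53.1% with TMM, 54.5% with relative log expression scaling and 53.4% by edgeR. The Hox genes were measured in the same libraries, so their signs are not independent. By edgeR with no filter, the low Hoxa6, Hoxb5, Hoxb7, Hoxb9 and Hoxc4 lay below 0. The other low Hox genes lay above it. At the prolonged time the fold changes of the tested Hox genes ran from -0.36 (Hoxa3) to 0.19 (Hoxa9), with a median of -0.02. Of these, 3 of 6 were above 0, beside 50.4% of all tested genes. The lowest limma adjusted p was 0.243 and the interval bounds reached from -0.77 to 0.65.

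Hoxa3, an anterior gene of its cluster, had 1.08, 2.45, 0.972, 1.31 and 0.849 CPM in acute Control libraries and 1.17 to 2.28 CPM, with a median of 1.46, in acute DKO libraries. The DKO libraries lay within the Control range, and the log2 fold change was 0.11 ± 0.16 (limma adjusted p = 0.705). Prolonged Control libraries had 1.34, 1.66 and 1.01 CPM and DKO libraries 0.239, 1.24, 1.03, 0.873 and 0.842 CPM, of which 3 lay below every Control library. The prolonged change was -0.36 ± 0.19 (limma adjusted p = 0.243), or -0.65 by edgeR (adjusted p = 0.260), and the difference between both times was -0.47 ± 0.26 (adjusted p = 0.859).

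Among the other tested Hox genes, acute means went from 0.727 ± 0.290 CPM in Control to 0.976 ± 0.305 CPM in DKO libraries for Hoxa5 and from 0.570 ± 0.278 to 0.817 ± 0.392 CPM for Hoxb3. The limma log2 fold changes were 0.20 ± 0.14 (adjusted p = 0.389) and 0.20 ± 0.16 (adjusted p = 0.454). Without DKO 3 and 4 the Hoxa5 value was 0.082 (adjusted p = 0.769). Hoxa7, Hoxa9 and Hoxa10 had 0.567, 0.559 and 0.495 CPM in acute Control and 0.823, 0.720 and 0.611 CPM in acute DKO libraries, and Hoxb4 and Hoxb6 had 0.634 and 0.493 against 0.754 and 0.606 CPM. For each of these 5 genes the difference in means was smaller than the larger of the SDs of its groups. In prolonged libraries Hoxa4, Hoxa5, Hoxa7, Hoxa9 and Hoxb4 had Control means of 0.470, 0.507, 0.579, 0.464 and 0.484 CPM and DKO means of 0.424, 0.514, 0.509, 0.637 and 0.721 CPM. Several Hox genes share exon sequence with antisense transcripts of their cluster, Hoxb3 with 2250 bases of Hoxb3os, and reads there cannot be told apart.

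**Figure D3:**
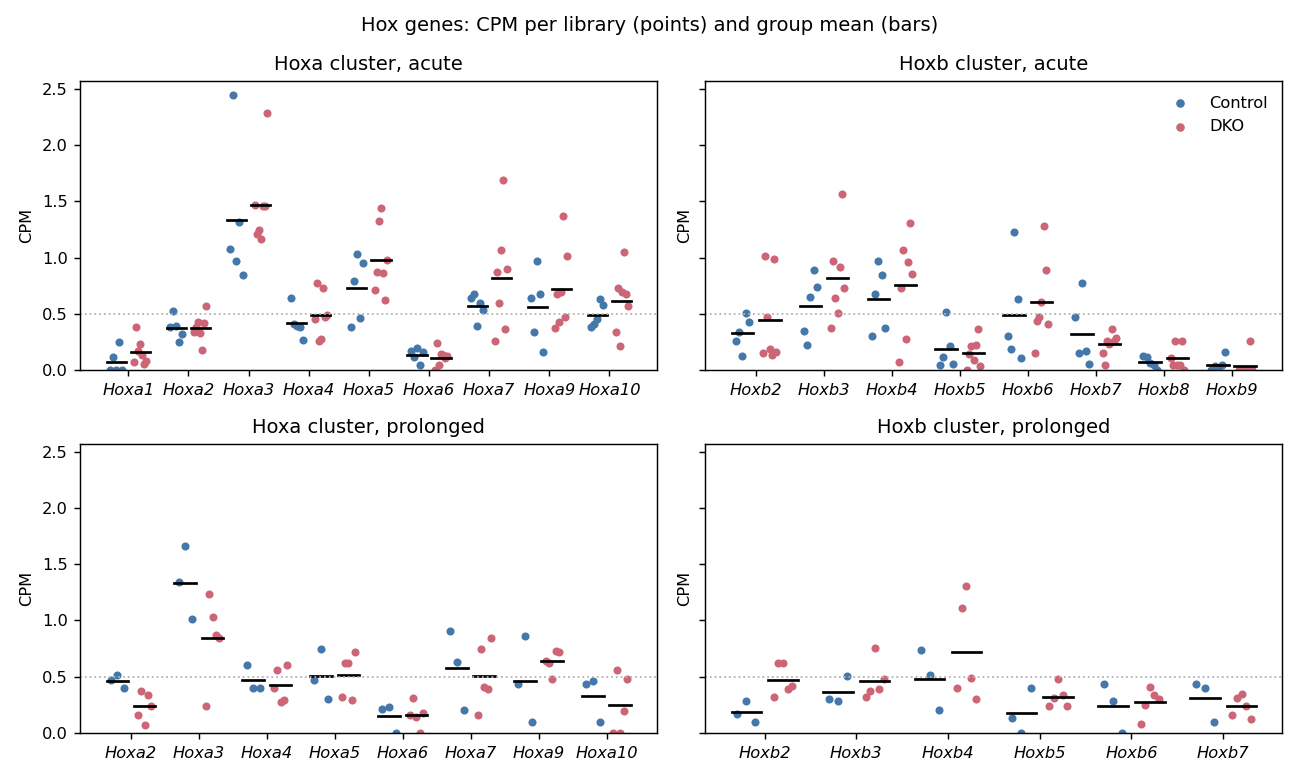
CPM of the Hoxa (left) and Hoxb (right) genes in each library, ordered by paralogue number, at the acute (top) and prolonged (bottom) time. Black bars are group means and the dotted line marks 0.5 CPM, the level used for testing; Control and DKO points overlap for each gene tested, and the highest point is Hoxa3 in acute Control library 2, at 2.45 CPM.

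Summed over all 22 listed Hox genes, acute Control libraries had 6.75, 8.44, 9.33, 8.18 and 5.89 CPM, and acute DKO libraries 5.12 to 11.7 CPM with a median of 9.67. DKO library 1 had the lowest and DKO library 5 the highest sum of the 12. The means were 7.72 ± 1.38 (n = 5) and 9.40 ± 2.14 CPM (n = 7). The prolonged sum over 14 genes was 6.06 ± 1.93 CPM (n = 3) in Control and 6.06 ± 1.69 CPM (n = 5) in DKO libraries.

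Stromal and muscle cells of the gut wall are known to express Hox genes, so the summed level of their 15 markers is given beside these sums. It ranged from 56.0 to 259 CPM (median 141) in acute Control and from 45.1 to 864 CPM (median 275) in acute DKO libraries. At most 1 marker was at 0 in an acute library. Acute DKO library 5, with the highest Hox sum, had the lowest stromal sum of the acute libraries, and DKO library 3, with the highest stromal sum, had a Hox sum of 9.60 CPM. At the prolonged time the stromal sum was 18.8 to 22.5 CPM in Control libraries, where 2 to 6 of the 15 markers were at 0 in a library and Lum in all 3, and 22.3 to 37.7 CPM in DKO libraries. Of these markers none passed the test at the acute time and 1 of 5 tested was higher at the prolonged time, Pdgfrb, from 1.85 ± 0.416 to 3.35 ± 0.870 CPM (limma adjusted p = 0.0415). Their part in the Hox levels was not tested.

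**Figure D4:**
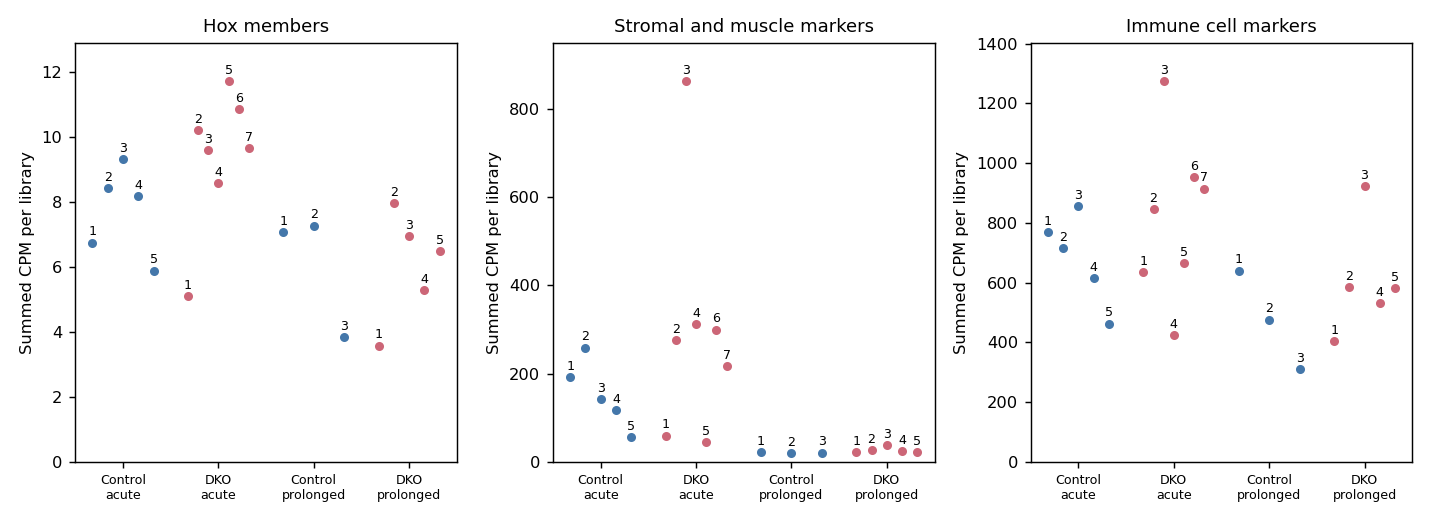
Summed CPM per library of the Hox genes (left), of stromal and muscle markers (middle) and of immune cell markers (right), for the 4 groups; the number at each point is the library's replicate number. Acute DKO library 5 has the highest Hox sum, 11.7 CPM, and acute DKO library 3 the highest stromal sum, 864 CPM.

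The level for testing was missed by 50 acute and 29 prolonged members. Of the 50, 16 had fewer than 10 reads in each group and 41 had at least 1 library with no read, and the highest group mean was 0.696 CPM, that of Six4. Of the 29, 11 had fewer than 10 reads in each group and 21 had a library with no read. Across both times 51 members never reached the level, and 33 of them had at least 10 reads in some group. The most abundant of these by reads in a group were Six4 (77 reads), Tbx2 (70) and Hoxb2 (66).

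Tested on reads without a filter, edgeR called 2 of the 50 low members at the acute time, Six4 and Nkx6-3, and none of the 29 at the prolonged time, where 4 had an unadjusted p under 0.05. In these fits it called 1.98% of all 3693 low acute genes and 2.15% of all 2879 low prolonged genes. DESeq2 called the same 2 at the acute time and none at the prolonged time. Tbx2, a T-box repressor related to Tbx3, had 0.419 ± 0.0990 and 0.452 ± 0.270 CPM at the acute time (edgeR log2 fold change 0.20, adjusted p = 0.846). Hoxb2 had 37 reads in acute Control and 66 in acute DKO libraries (0.43, adjusted p = 0.708).

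Among low members, 3 had separate groups at the prolonged time and none at the acute time; they were noticed after their values were seen. Among all genes below the level, the groups were separate for 1.33% at the acute and 7.64% at the later time. Hoxb2 had 0.173, 0.287 and 0.101 CPM in Control and 0.318, 0.618, 0.619, 0.388 and 0.421 CPM in DKO libraries (edgeR log2 fold change 1.24, adjusted p = 0.119), so that all DKO libraries lay higher. Hoxa2, its paralogue, lay lower in all DKO libraries, with 0.475, 0.516 and 0.403 CPM in Control and 0.159, 0.371, 0.0688, 0.340 and 0.241 CPM in DKO libraries (-0.91, adjusted p = 0.254). Sox5, a SoxD factor, was also lower, at 0.398 ± 0.00822 and 0.271 ± 0.0825 CPM (-0.52, adjusted p = 0.492). At the acute time these 3 genes had edgeR log2 fold changes of 0.43, 0.10 and 0.02.

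Nkx6-3, a homeobox factor of gastric and duodenal cell differentiation and chosen after its values were seen, had no read in the 5 acute Control libraries, which held 107649844 reads in genes. The 7 acute DKO libraries held 0, 1, 4, 3, 10, 2 and 4 reads. A count of 0 allows 3 reads over the Control group (0.0279 CPM), and the pooled DKO level of 0.152 CPM was 5.47 times that level. This ratio allows for counting error in the Control group alone and not for the spread between libraries. DKO library 5 held 10 of the 24 DKO reads. edgeR with no filter gave an adjusted p of 0.0442, and in the authors' deposited table the adjusted p was 0.0147. In prolonged libraries the gene had 6 reads in Control and 7 in DKO libraries, with an edgeR log2 fold change of -0.38 (adjusted p = 0.848).

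In prolonged Control libraries Msx3 and Nkx2-3 had no read, and each had 8 reads spread over 4 DKO libraries; they too were chosen after their values were seen. No fold is given for so few reads. For them edgeR gave adjusted p values of 0.173 and 0.148. At the acute time Nkx2-3 had 23 and 52 reads, and Msx3 was not listed. Tbx10 had 0 and 4 reads at the acute time, which is at or under the level that a count of 0 allows, so no fold is given.

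For no member did the difference in genotype effect between the times pass the test. The difference between both log2 fold changes was tested by limma in 1 model over the 4 groups for the 19 members tested at both times. None was called and none had an unadjusted p under 0.05, by limma or by edgeR, beside 0% of 13088 genes called and 608 with an unadjusted p under 0.05. The difference (prolonged minus acute) was -0.20 ± 0.28 for Pax8 (limma adjusted p = 0.898), 0.00 ± 0.12 for Sox13 (0.999), -0.02 ± 0.14 for Tbx3 (0.971) and -0.05 ± 0.30 for Tbx3os2 (0.970).

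A list of 94 other developmental regulators that are classical Polycomb targets was examined the same way. Of these, 42 were listed at the acute time and 21 tested, with a median log2 fold change of -0.06. Those tested included genes abundant in acute Control libraries, such as Cdx2 (301 CPM) and Onecut2 (165 CPM). Of the 21, 1 was higher and 1 lower, beside 2.9% and 12.1% of all tested genes. Prrx1, a homeobox factor of mesenchyme, rose at the acute time, from 18.9 ± 3.85 to 27.7 ± 3.45 CPM (log2 fold change 0.54 ± 0.12, limma adjusted p = 0.00963), and was called in all 22 alternatives at that time. The stromal marker sums given beside the Hox genes had medians of 141 CPM in acute Control and 275 CPM in acute DKO libraries, and their part in the Prrx1 result was not tested. Its prolonged change was 0.21 ± 0.09 (adjusted p = 0.172). Mnx1, a motor neuron and pancreas factor, fell at the acute time, from 5.95 ± 1.23 to 3.20 ± 1.30 CPM (-0.77 ± 0.22, adjusted p = 0.0298), but the call held in 14 of 22 alternatives and was lost without DKO 3 and 4 (-0.53, adjusted p = 0.0514), and without each of Control 2, 3, 4 and 5 and DKO 1 and 3.

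Hox proteins bind DNA with the TALE class cofactors Meis, Pbx and Pknox. None of 8 tested cofactors was called at the acute time, and at the prolonged time 1 of 7 was higher and 1 lower. Of all tested genes, 15% were called in either direction at the acute time, and 5.74% higher and 8.94% lower at the prolonged time. Meis3 rose from 2.09 ± 0.421 (n = 3) to 4.04 ± 0.505 CPM (n = 5), a log2 fold change of 0.71 ± 0.13 (limma adjusted p = 0.00454). Meis2 fell from 1.54 ± 0.222 to 0.690 ± 0.234 CPM (-0.60 ± 0.15, adjusted p = 0.0194), and lost its call without Control 2 (adjusted p = 0.0651) or Control 3 (0.0752). Neither gene's groups overlapped at that time, beside 20.5% of all tested genes without overlap. Those of Pknox1 did not overlap either, with DKO below and no call.

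All listed genes of the complexes that set and read H3K27me3 were tested. Of all tested genes, 2.9% were higher and 12.1% lower at the acute time, and 5.74% higher and 8.94% lower at the prolonged time. Beside these shares, of 12 PRC2 genes 1 was higher and 4 lower at the acute time, and 1 higher and 2 lower at the prolonged time. Ezh2, which encodes the methyltransferase subunit, fell at the acute time from 58.3 ± 4.28 to 45.2 ± 3.87 CPM (log2 fold change -0.36 ± 0.07, limma adjusted p = 0.00417), and at the prolonged time had -0.21 ± 0.08 (adjusted p = 0.127). Rbbp4 was lower at both times, at -0.37 ± 0.06 (adjusted p = 0.00203) and -0.24 ± 0.06 (0.0231). So was Rbbp7, at -0.35 ± 0.07 (0.00310) and -0.31 ± 0.05 (0.00278). Each was called in 22 of 22 acute alternatives. Of 17 prolonged alternatives, 12 called Rbbp4 and 16 called Rbbp7. Jarid2, an accessory subunit, was higher at both times, at 0.31 ± 0.09 (adjusted p = 0.0411) and 0.20 ± 0.06 (adjusted p = 0.0367), but the call held in 12 of 22 acute and 10 of 17 prolonged alternatives. It was lost, among others, without acute DKO 3 and 4 (0.22, adjusted p = 0.0904) and without prolonged Control 2 (0.14, adjusted p = 0.121). Of 20 PRC1 genes, 1 was higher and 3 lower at the acute time, and 2 higher and 2 lower at the prolonged time; Cbx6, a chromodomain subunit, was lower at both, at -0.77 ± 0.14 (adjusted p = 0.00264) and -0.63 ± 0.17 (adjusted p = 0.0253). Cbx6 was called in 22 of 22 acute and 13 of 17 prolonged alternatives, and its prolonged call was lost without Control 1 (adjusted p = 0.0838), Control 3 (0.120) or DKO 5 (0.0542).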

How the data were processed

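Poly(A) RNA-seq was measured in 20 libraries, and per the submitters' processing notes the tools and build named are mm9, STAR, featureCounts 1.6.2, DESeq2, bedtools 2.27.1, SAMtools 1.9 and FastQC 0.11.5, whose roles and order are not stated. The authors deposited 1 table per time of CPM per gene symbol, which carries no scaling for composition, with log2 fold changes and adjusted p-values from DESeq2, per the file headers; 10 columns were not used. Among acute gene names, 22 are dates and 2 are repeated. All CPM values were whole multiples of 1 read within 0.01 reads, although in prolonged Control 3 the value of 1 read is so close to 0.1 CPM that this check says less.

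Genes with at least 0.5 CPM in 5 acute or 3 prolonged libraries were tested with limma-trend 3.58.1 (R 4.3.3) on log2(CPM + 1), each time alone, over all genes; fold changes on this scale understate those of low genes. The difference between times came from 1 limma model over the 4 groups. The fits were tested on simulated data with a fixed spread and known changes in the more abundant genes alone, which does not cover the low members. Alternatives were other pseudocounts, filters and scalings, edgeR 4.0.16 and DESeq2 1.42.0 on the recovered reads, a replicate block and leaving out libraries. For the members below the filter, DESeq2 on the recovered reads gave the same values as the authors' deposited table. Calls by both are therefore not separate evidence. The 44 pairs of libraries of the same group had 6.14 to 139 times the variance that sampling gives, so each library counted as 1 sample. Floors cover counting error only.

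Named members were those called, those with a group mean of at least 5 CPM, the 4 highest and 4 lowest fold changes per time, the 3 most abundant below the filter and every tested Hox gene. Members, lists and rules were chosen with earlier results of these data known. Exon lengths (GENCODE, for 74 of 75 members) and promoters (RefSeq) are on GRCm38, not the authors' mm9. The prolonged result of the list of other developmental regulators is not reported here.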

Additional observations from a re-analysis of the deposited data

Results flagged for a closer look

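Of 74 groups of 4 to 10 libraries checked, 5 held a library far from the rest of its group; chance gives about 1 in 20 such groups. Gata5 was 103.8 CPM in acute Control 2, where the group median was 82.6 CPM and the next library 84.2 CPM. Tbx3 was 250 CPM in acute Control 5, with a median of 191.7 CPM and a next library of 202 CPM, and without this library the acute Tbx3 difference passes the threshold, as it also does without DKO 7. Hoxa3 was 2.28 CPM in acute DKO 7, with a median of 1.46 and a next library of 1.47 CPM. Nkx1-2 was 2.15 CPM in acute DKO 5, with a median of 0.339 and a next library of 0.627 CPM. Nkx6-3 was 0.457 CPM in acute DKO 5, with a median of 0.14 and a next library of 0.172 CPM, and this library holds 10 of its 24 reads.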

How the results depend on the processing

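Pax8 was called lower in all 22 acute and 17 prolonged alternatives. The count of called members at the acute time was 1 (Pax8) with TMM scaling, 1 with relative log expression scaling and 6 with DESeq2, against 2, and 2 to 3 on leaving out each library in turn at either time. Sox13 also lost its acute call with edgeR on unfiltered reads (-0.29, adjusted p = 0.0610). Six4 was called at the acute time by limma with no filter and without Control 1. Sox4 turned to 0.028 at the acute time without DKO 3 and 4, and on leaving out single libraries at the prolonged time it ranged from -0.059 (without Control 2) to 0.099. Over all genes, leaving out a library gave 1239 (without acute Control 3) to 2186 acute calls against 2035, and 1051 (without prolonged Control 3) to 1721 prolonged calls against 1955. Acute calls split into 394 higher and 1641 lower as deposited, 701 and 1120 with TMM, 710 and 1081 with relative log expression, 667 and 1081 with edgeR and 1040 and 1304 with DESeq2, and the median log2 fold change moved from -0.07 to between 0.01 and 0.04. No member was called different between times in any alternative run, and of all genes at most 20 were. At most 2 members had an unadjusted p under 0.05, by limma without acute Control 2.

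Replicate numbers did not pair the libraries: deviations of same-numbered Control and DKO libraries correlated at -0.20 to 0.20 over 5 acute and -0.24 to -0.16 over 3 prolonged pairs. In acute libraries they do not follow the mouse numbers in the labels either, and no block on mouse number was run. With the replicate number as a block, 2 acute and 1 prolonged member were called; Sox13 at the prolonged time gave -0.36 (adjusted p = 0.0520). Of the acute Hox genes 7 of 8 lay above 0 with the block, beside 30.8% of all tested genes. At the prolonged time Meis3 (0.76, adjusted p = 0.0619), Meis2 (-0.56, adjusted p = 0.147), Cbx6 (-0.47, adjusted p = 0.0627) and Jarid2 (0.19, adjusted p = 0.252) were not called with it, and acute Jarid2 was not either (0.33, adjusted p = 0.0741). With the block, prolonged Rbbp4 (-0.20, limma adjusted p = 0.170) and Rbbp7 (-0.30, adjusted p = 0.0762) were not called either. Over all genes the block left 947 acute and 528 prolonged calls.

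With 1 read worth 0.0376 to 0.101 CPM, a Hox group mean of 0.5 CPM rests on few reads per library.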
